A study of Mus musculus with 34 samples.

Results

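The actin-related protein 2/3 (Arp2/3) complex and its activator Wasl were examined in cultures and tumours of mouse osteosarcoma (OS) cells. The 10 genes were chosen by symbol and not by a cut on measured values, but with earlier results of these data known. They are the actin-related subunits Actr2 and Actr3, the further subunits Arpc1a, Arpc1b, Arpc2, Arpc3, Arpc4, Arpc5 and Arpc5l, and Wasl. The culture table held 8 of them among 16562 genes tested, and the tumour table held 6 among 12595. Arpc1b and Arpc4 had no row in the tables used here, and Arpc3 and Arpc5 had a row only for the cultures. Between nutritional stress and log phase growth without a morpholino all 8 members measured in cultures passed the test, beside 65.6% of all genes, in both directions, from −0.67 for Arpc1a to 0.75 for Arpc5l on the log2 scale, and the calls of Actr2 and Arpc5 were lost without single libraries. In the tumours all 6 members ranged over more than 7 log2 units. Actr3 and Wasl passed as lower in the combination group than in the doxorubicin group, but Actr3 no longer passed in 7 and Wasl in 6 of the 8 repeats that left out 1 tumour.

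The Arp2/3 complex starts new actin filaments as branches on the sides of existing ones, and the branched networks push the cell edge forward during migration and bend membranes during endocytosis. Actr2 and Actr3 resemble actin and form the first subunits of the new branch, Arpc2 and Arpc4 make the scaffold that holds the mother filament, and the Arpc1, Arpc3 and Arpc5 subunits complete the assembly. Arpc1a and Arpc1b are alternative copies of one subunit, as are Arpc5 and Arpc5l, so that a cell can build complexes of different composition. The complex alone is nearly inactive. Wasl, the neural Wiskott-Aldrich syndrome protein known as N-WASP, binds the GTPase Cdc42 and the lipid PIP2, opens, and switches the complex on. In sarcoma cells this machinery is known for its place in lamellipodia and in the invadopodia that degrade matrix.

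MOSJ-Dkk1 cells are one RFP-labelled murine osteochondral sarcoma line that carries a lentiviral vector and secretes human Dkk-1, a Wnt inhibitor, under the CMV promoter, and every group used here carries this construct. DkkMo is a vivo morpholino directed against the human Dkk-1 transcript, and scrMo is its control with mismatched bases. Since the tables list mouse genes, the targeted human transcript was not measured here. The cultures formed 6 groups of 3 libraries: log phase cultures, which reached logarithmic growth after 6 days with regular media changes, and nutritional stress cultures, which passed 48 h at confluence and 4 days without fresh medium, each without a morpholino (NT), with scrMo at 5 µM or with DkkMo at 5 µM, added 24 h after seeding. The tumours grew from the same cells in the hindlimbs of NU/J nude mice, which lack Foxn1 and therefore T cells, and which were 2 months old when injected. There were 4 specimens each from NT mice, which received vehicle, and from mice that received doxorubicin (DRB), DkkMo, or both (Combination), by intraperitoneal injection. No tumour group received scrMo. Titles of 2 stress NT cultures repeat one replicate number, and where the sources do not say that libraries came from separate cultures the p-values measure the spread between these libraries. The specimens were tumour with stroma, dissected from formaldehyde-fixed limbs, so that fewer cells of a type and less RNA per cell cannot be told apart in them.

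The members lie on 5 chromosomes of the mouse genome GRCm38. Their gene spans in GENCODE are chr11:20062304-20112913 for Actr2 and chr1:125392905-125435727 for Actr3, both on the minus strand, chr5:145083830-145108761 for Arpc1a, chr1:74236084-74268209 for Arpc2, chr5:122391878-122414184 for Arpc3, chr1:152766542-152775597 for Arpc5 and chr2:39005348-39015877 for Arpc5l, all on the plus strand, and chr6:24613805-24665009 for Wasl on the minus strand. Arpc1b (chr5:145114215-145130705) begins close after Arpc1a on the plus strand, and Arpc4 (chr6:113378115-113390448) lies on the same chromosome as Wasl. Of all 50-base windows of the Actr3 transcripts, 26.3% also occur in transcripts of other genes, chiefly the predicted gene Gm8822, so that its counts could be shared with near copies. For the other measured members this share was at most 1.73%. Among exon bases, 1.38% of Arpc5l overlap Rpl35 or Wdr38 and 1.95% of Arpc1a overlap Kpna7.

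The promoters of 4 members are shown because their transcripts moved in opposite directions with nutritional stress in NT cultures. With scrMo or DkkMo the differences of all 4 were negative. They are the 250 bases before the RefSeq start (GRCm38.p6), 5′ to 3′, with every GC box, CCAAT box and E-box on either strand in capitals, and for Arpc1a the 211 bases that lie outside the GENCODE gene span.
Actr3, chr1:125435728-125435977, minus strand: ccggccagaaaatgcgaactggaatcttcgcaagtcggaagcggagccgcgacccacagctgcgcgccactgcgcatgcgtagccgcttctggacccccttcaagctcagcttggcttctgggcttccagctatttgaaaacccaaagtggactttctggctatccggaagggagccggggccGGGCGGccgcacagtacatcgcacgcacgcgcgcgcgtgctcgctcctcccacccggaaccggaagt
Arpc5, chr1:152766292-152766541, plus strand: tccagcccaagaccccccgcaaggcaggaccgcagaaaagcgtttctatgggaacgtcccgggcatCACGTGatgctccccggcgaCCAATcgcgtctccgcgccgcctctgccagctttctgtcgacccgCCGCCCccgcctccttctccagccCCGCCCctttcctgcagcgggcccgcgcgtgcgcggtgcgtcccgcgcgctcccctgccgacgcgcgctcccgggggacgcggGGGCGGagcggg
Arpc3, chr5:122391628-122391877, plus strand: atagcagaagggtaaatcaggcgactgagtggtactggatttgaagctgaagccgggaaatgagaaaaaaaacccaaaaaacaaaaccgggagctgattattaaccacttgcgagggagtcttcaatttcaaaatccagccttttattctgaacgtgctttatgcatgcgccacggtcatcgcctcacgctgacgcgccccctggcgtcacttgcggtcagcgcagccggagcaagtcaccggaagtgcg
Arpc1a, chr5:145083619-145083829, plus strand: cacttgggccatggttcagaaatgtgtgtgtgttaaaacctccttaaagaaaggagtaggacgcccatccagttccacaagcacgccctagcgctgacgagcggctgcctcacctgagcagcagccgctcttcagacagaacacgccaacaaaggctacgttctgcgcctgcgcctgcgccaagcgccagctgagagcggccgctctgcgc

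A RefSeq promoter was matched for 9 of the 10 members, all but Arpc5l. The GC box GGGCGG, the motif of Sp-family factors, searched like the others on both strands, occurred in 6 of the 9 windows and in 32.7% of all 32851 promoters of the same length, and CCAAT occurred in 3 of the 9 and in 33.8% of all. The E-box CACGTG, which can be bound by Myc family factors, was found in 1 of the 9 windows, that of Arpc5, against 6.02% of all. The cAMP response element TGACGTCA was in 0 of the 9 (1.55% of all) and the CArG box of serum response factor, which regulates many actin genes, in 1 of the 9, that of Arpc4 (1.47% of all). Among the 7 members with both a promoter and a culture row, the 5 that rose with nutritional stress in NT cultures, Actr2, Actr3, Arpc2, Arpc5 and Wasl, each held at least 1 GC box, and the 2 that fell, Arpc1a and Arpc3, held 0. This split was noticed after the values were seen and is given without a test. It holds for NT cultures only, since Arpc2 and Arpc5 fell with stress under scrMo and under DkkMo, and the NT call of Arpc5 was lost without single libraries. The Arpc3 window was 51.2% GC and that of Arpc5 74.4%, beside a median of 52.4% over all promoters.

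Reads on listed genes ranged from 25.9 to 44.8 megareads per culture and from 26.9 to 125 megareads per tumour. The tumour libraries were far less even than the cultures: the share of listed genes without a read ran from 0.937% to 15.8%, and the 10 genes with most reads took 8.51% to 73.5% of each library, with all 4 DRB tumours between 46.7% and 73.5%. NT replicate 4 and DRB replicate 1 stood apart, with Spearman correlations to the mean culture of 0.458 and 0.241, while no other tumour exceeded 0.063. The osteoblast factor Runx2 was present in every library, at 52.6 to 162 reads per megaread (RPM) in cultures and 32.7 to 352 in tumours, whereas the other osteoblast markers differed in direction between cultures and tumours. Col1a2 and Sparc, at 59.0 to 1250 and 112 to 530 RPM in cultures, were at 0.170 to 16.8 and 0.518 to 5.29 in tumours. Alpl was at 0.219 to 0.758 RPM in cultures and 20.1 to 541 in tumours, Col1a1 at 41.7 to 1004 and 26.4 to 563, and Spp1 at 1538 to 6737 and 3.24 to 23189.6.

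Levels were first compared between members as normalised counts (reads divided by the authors' library size factor) per kilobase of exon. Over the 18 cultures Arpc1a, Arpc2 and Arpc5l led, with medians (lowest to highest) of 3706 (2250.1 to 5409.6), 3434 (2925 to 4257) and 3132 (2357 to 4715) normalised counts per kilobase. The ranges of these 3 overlap, and all lie above the range of Actr3, 1665 (1488 to 2043). Below it came Actr2 at 1379.9 (1089 to 1541), Arpc5 at 1326 (1166 to 1569), Arpc3 at 955 (709 to 1343) and the activator Wasl at 845 (661 to 1086), and each of these overlaps its neighbour in the order. Actr3b, a copy of Actr3 that is not a member here, was far lower in cultures, at 47.2 (1.83 to 148).

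In the tumours the medians per kilobase were 412 for Arpc1a, 242 for Actr2, 152 for Arpc2, 55.1 for Arpc5l, 35.6 for Wasl and 30.2 for Actr3, and all 6 ranges overlap. Here Actr3b was the more abundant copy by the median, at 1168 (239 to 3563) normalised counts per kilobase. The order differed between tumours: in DRB replicate 1 Actr3 was at 13496 and Actr3b at 239. In NT replicate 4 Actr3, at 11711, was also above Actr3b. On the variance-stabilised log2 scale of the deposited values the members spanned 7.20 (Wasl) to 10.06 (Actr2) units over the 16 tumours, against a median gene of 4.66 and a 90th percentile of 7.67. Over the 18 cultures they spanned 0.39 (Arpc5) to 1.22 (Arpc1a) units, against a median gene of 0.557. The 2 tables were transformed separately, so levels in cultures and tumours are set side by side without a test.

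**Figure D1:**
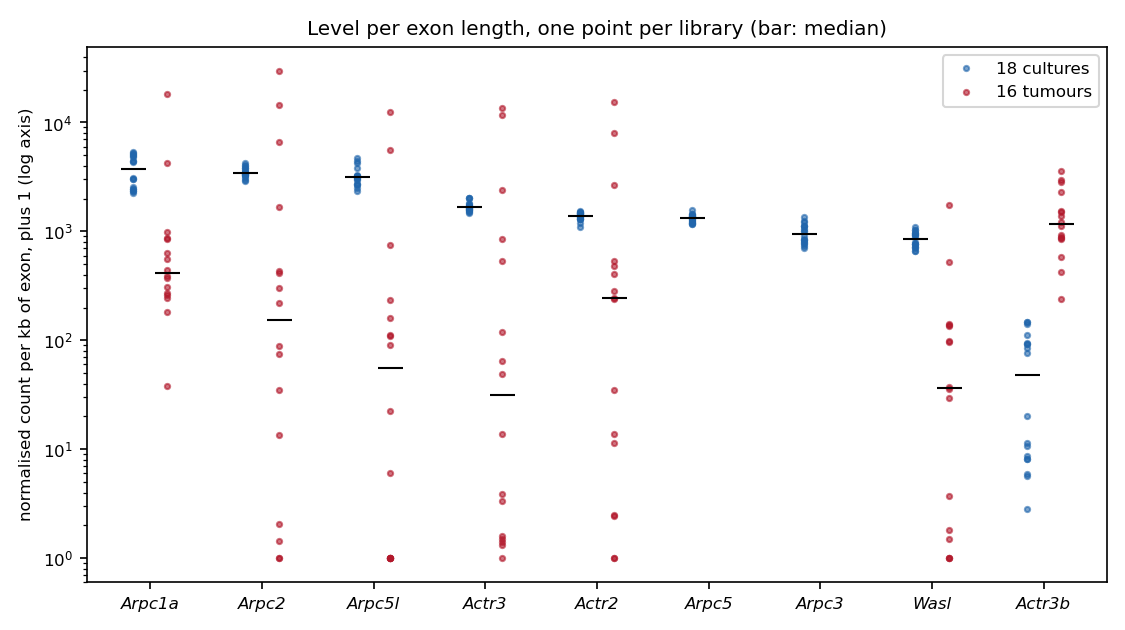
Normalised count per kilobase of exon plus 1 (log axis) of each member and of Actr3b, with 1 point per library for 18 cultures (blue) and 16 tumours (red) and a bar at each median. The cultures lie close together for every member, while the tumours of Arpc2, Arpc5l, Actr3, Actr2 and Wasl reach down to 0 normalised counts, and Actr3b alone has its tumour points above its culture points.

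In the tumours the actin-related subunits varied widely within groups. Actr2 had values of 10.47, 6.69, 13.78 and 16.29 in the 4 NT tumours, 15.35, 11.50, 10.65 and 11.38 under DRB, 10.45, 11.15, 6.68 and 6.23 under DkkMo and 7.42, 6.23, 7.54 and 8.28 under the combination, where a value of 6.23 stands for 0 reads. The combination tumours were all below the DRB tumours, while NT and DkkMo tumours spread over the range of both. Actr3 was at 11.37, 6.50, 6.48 and 15.73 in NT, 15.94, 12.00, 13.45 and 9.43 under DRB, 8.47, 7.47, 6.23 and 6.45 under DkkMo and 8.76, 6.78, 6.83 and 6.43 under the combination. All 4 DRB tumours were above all 8 tumours that received DkkMo, alone or with DRB, and 2 of the 4 NT tumours were as low as the latter.

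The scaffold subunit Arpc2 was at 9.96, 7.05, 11.79 and 15.88 in NT, 14.86, 9.18, 13.73 and 9.99 under DRB, 7.56, 9.56, 6.23 and 6.39 under DkkMo and 8.13, 6.23, 8.28 and 6.47 under the combination. Its combination tumours were all below its DRB tumours, while DkkMo replicate 2, at 9.56, lay above DRB replicate 2, at 9.18. Arpc1a, a subunit that contacts the activators, was at 10.61, 9.25, 7.77 and 15.53 in NT, 13.44, 11.39, 11.18 and 9.66 under DRB, 10.80, 11.22, 10.15 and 10.31 under DkkMo and 9.58, 10.12, 9.87 and 9.71 under the combination. It was the 1 member with reads in every tumour, at least 83, and apart from NT replicate 4 and DRB replicate 1 its values lay within 1 band from 7.77 to 11.39 in which the groups overlapped, save that the 4 combination tumours were all below the 4 DkkMo tumours. Arpc5l, the Arpc5 copy measured in tumours, was at 9.76, 7.01, 11.78 and 15.79 in NT, 14.63, 9.33, 9.08 and 9.29 under DRB and 10.23, 7.78, 6.23 and 6.23 under DkkMo. In the 4 combination tumours it had 0 reads each.

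The activator Wasl was at 9.92, 6.90, 8.49 and 13.43 in NT, 11.71, 9.95, 9.54 and 9.98 under DRB, 8.27, 8.44, 6.23 and 9.52 under DkkMo and 6.52, 6.60, 6.23 and 6.23 under the combination. In reads, Wasl had 3, 6, 0 and 0 in the combination tumours against 1480, 380, 599 and 903 in the DRB tumours, with no overlap. For all 6 members NT replicate 4 and DRB replicate 1, the tumours most like the cultures, were the 2 highest of the 16. At the other end, DkkMo replicate 3 had 0 reads for 4 of the 6 members, DkkMo replicate 4 for 2, and the combination tumours for 1 to 3, while no member was at 0 in any NT or DRB tumour.

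**Figure D2:**
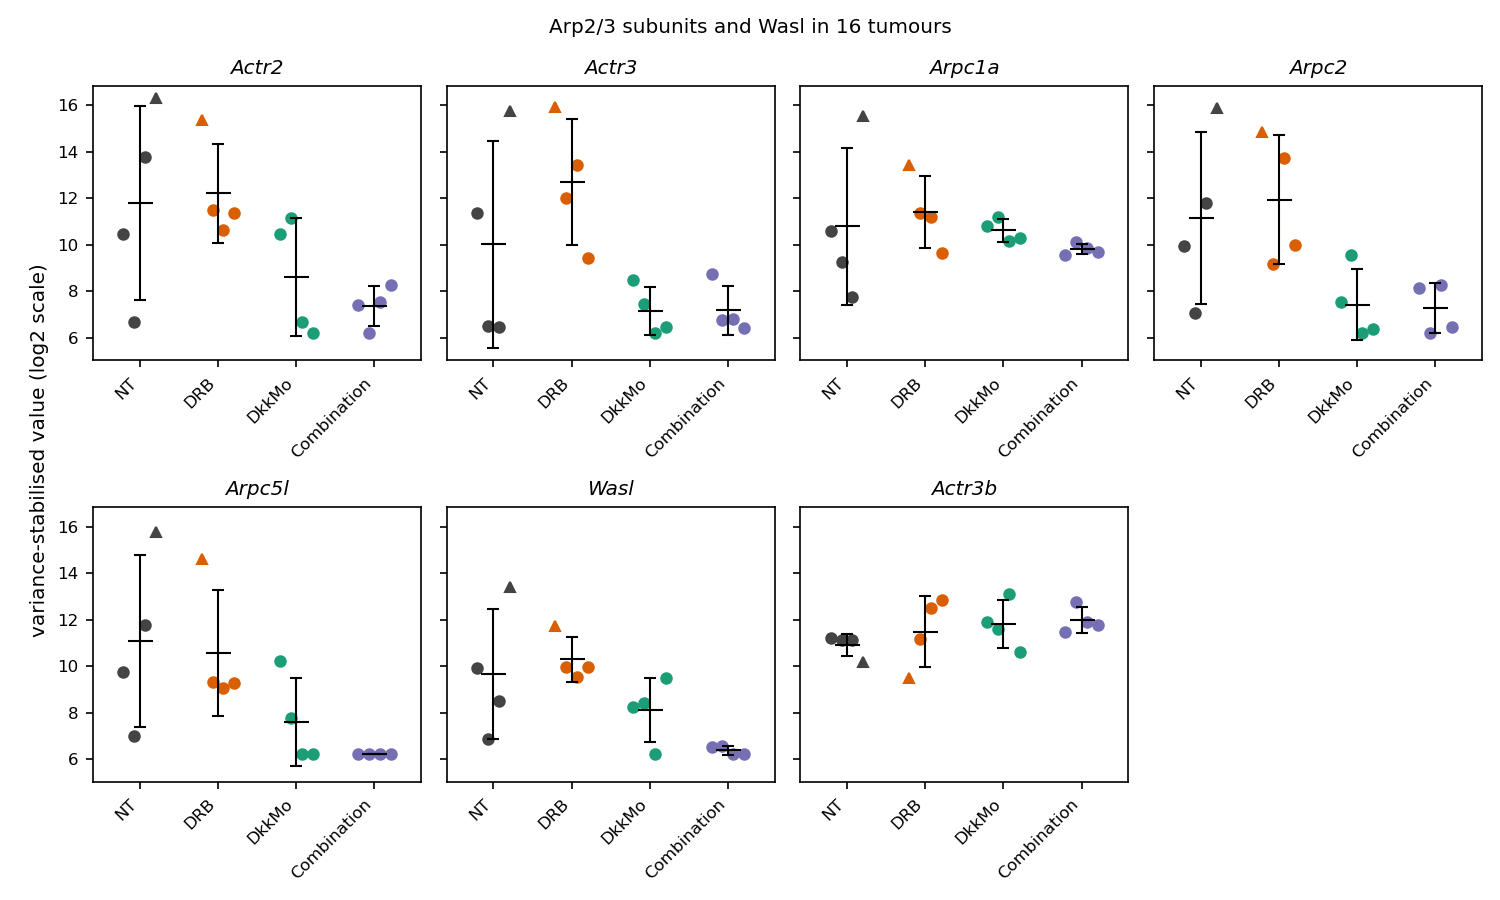
Variance-stabilised values (log2 scale) of the 6 members and Actr3b in the 16 tumours, 4 per group, with the mean and 1 SD of each group. Triangles mark NT replicate 4 and DRB replicate 1, which are the highest of their groups for every member and the lowest of their groups for Actr3b, and the 4 combination tumours lie together at the bottom for Arpc5l and Wasl.

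The comparison of the combination with DRB alone asks what DkkMo added to the chemotherapy. Actr3 fell from 12.71 ± 2.72 to 7.20 ± 1.06 (mean ± SD, n = 4), a log2 difference of −5.51 (SE 1.63, adjusted p = 0.0456), and Wasl fell from 10.30 ± 0.96 to 6.39 ± 0.19, a difference of −3.91 (SE 1.12, adjusted p = 0.0398), by limma with Benjamini-Hochberg adjustment over all genes. These are 2 of the 6 members, beside 7.35% of all genes called in this comparison. The other 4 did not pass: Actr2 differed by −4.85 (adjusted p = 0.0633), Arpc2 by −4.67 (adjusted p = 0.0617), Arpc5l by −4.35 (adjusted p = 0.0801) and Arpc1a by −1.60 (adjusted p = 0.388). The groups did not overlap for 5 of the 6 members, all but Arpc1a, each lower in the combination, against 20.4% of all genes in either direction and 18.3% lower, and the median difference of the members was −4.51 against −0.71 over all genes, of which 69.9% were lower in the combination. Since Arpc5l had no read in any combination tumour, its mean normalised count there was at least 2636-fold lower than under DRB when each library is given a floor of 3 reads, and at least 183-fold lower without the highest DRB tumour. With the zeros at that floor its log2 difference was −4.09 and the median of the members −4.38.

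Both calls were close to the threshold. Without DRB replicate 1 the differences were −4.43 for Actr3 (adjusted p = 0.148) and −3.43 for Wasl (adjusted p = 0.120), and 0 of the 6 members passed. There were also 0 without DRB replicate 2 or without any 1 of the 4 combination tumours, 1 (Wasl) without DRB replicate 3, and 3 without DRB replicate 4. These counts are not set beside the share of all genes called in each repeat. Without both NT replicate 4 and DRB replicate 1 the differences were −4.43 (adjusted p = 0.0196) for Actr3 and −3.43 (adjusted p = 0.0174) for Wasl. With a covariate for how closely each tumour resembled the cultures (its Spearman correlation with the mean culture) they were −1.86 (adjusted p = 0.426) and −1.76 (adjusted p = 0.389), and on recovered reads by limma voom −8.24 (adjusted p = 0.184) and −9.58 (adjusted p = 0.0790). Actr2, Arpc2, Arpc5l, Actr3 and Wasl were lower in the combination under every scaling, whereas Arpc1a turned to 0.54 (adjusted p = 0.725) on the log2 RPM scale and to 1.04 (adjusted p = 0.553) with that covariate. Over all genes the median of this comparison, −0.71 on the deposited scale, was 0.97 on the log2 RPM scale, and centring each library on its median raised every difference by 1.04.

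DkkMo alone against NT gave 0 of the 6 members by limma, in a comparison that called 0% of all genes. At an unadjusted p below 0.05 there were 2 of the 6, Arpc2 and Arpc5l, beside 12.3% of all genes, and limma voom on recovered reads also called 0. The differences were −3.18 for Actr2, −2.87 for Actr3, −3.74 (SE 1.51, adjusted p = 0.342) for Arpc2, −3.47 (adjusted p = 0.373) for Arpc5l, −1.57 for Wasl and −0.17 for Arpc1a, with a median of −3.02 against −0.54 over all genes. The 95% interval for Arpc2 ran from −6.89 to −0.58, so that a large difference in this direction cannot be told from a small one with 4 tumours a group of this spread. The comparison shares no tumour with that of the combination against DRB, and the interaction of DkkMo with DRB gave 0 of the 6 members by limma and by voom (0 at an unadjusted p below 0.05, beside 6.77% of all genes).

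DRB against NT also gave 0 of the 6 members by limma (0% of all genes; 0 members at an unadjusted p below 0.05, beside 11.9% of all genes, and 0 by voom), with a median difference of 0.62 against 0.28 over all genes. The combination against NT gave 0 of 6 (0% of all genes, and 0 by voom), with 4 members at an unadjusted p below 0.05 beside 12.4% of genes. Arpc5l, at −4.86 (adjusted p = 0.342), and Wasl, at −3.29 (adjusted p = 0.345), were lower in all 4 combination tumours than in any NT tumour, which held for 4.22% of all genes. Without NT replicate 2, 2 members passed, a count not set beside the share of all genes called in that repeat. Against NT the mean of Arpc5l was at least 6014-fold lower by the same floor, and at least 544-fold without the highest NT tumour. The combination against DkkMo gave 0 of 6 (0% of all genes, 0 members at an unadjusted p below 0.05 beside 1.19% of genes, and 0 by voom), and for Arpc1a the groups did not overlap, as for 2.93% of all genes, with a difference of −0.80 (adjusted p = 1.000). Comparisons that share the NT, DRB or combination tumours are not independent of each other.

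Other measures moved with these results, and their part in them was not tested. The combination tumours had 28.3 to 41.1 megareads and the DRB tumours 85.3 to 106, the share of listed genes without a read was 4.26% to 11.7% and 1.31% to 2.51%, and the 10 genes with most reads took 13.5% to 18.6% and 46.7% to 73.5%, so that the groups were apart in all 3. The summed level of the macrophage and other leukocyte markers (7 of 10 listed genes measured) ran from 351 to 4801 RPM in NT, 282 to 1401 under DRB, 419 to 683 under DkkMo and 332 to 450 under the combination. Among them Ptprc, the pan-leukocyte marker, ran from 88.1 to 2401 in NT, 80.6 to 843 under DRB, 49.0 to 216 under DkkMo and 52.8 to 173 under the combination. Itgam, another of them, was at 9.99 to 64.6 RPM under DRB and 112 to 223 under the combination. On the deposited scale 4 of the 7 were lower in every combination tumour than in every DRB tumour and 0 higher, and 2 passed as lower, Ptprc and Laptm5, while Itgam differed by 0.15 (adjusted p = 0.904). The osteoblast and osteosarcoma markers (7 of 10) summed to 880 to 23685 in NT, 1262 to 7272 under DRB, 707 to 2733 under DkkMo and 671 to 3031 under the combination. Spp1 made most of the highest sums, with 1058 to 7163 RPM under DRB and 15.8 to 2275 under the combination, whereas Alpl (20.1 to 37.2 and 138 to 541), Col1a1 (26.4 to 102 and 357 to 563) and Sp7 (0.188 to 3.79 and 6.02 to 26.1) were higher in every combination tumour. On the deposited scale 2 of the 7, Runx2 and Spp1, lay lower without overlap and 1, Col1a1, higher, and 0 passed. Endothelial markers (6 of 6) summed to 465 to 1370, 184 to 507, 625 to 1354 and 858 to 1198 in the same order, so that the DRB tumours were lower there in RPM than the combination tumours, while on the deposited scale 2 of the 6 lay lower in the combination without overlap, 0 higher, and 0 passed. No marker of these lists was at 0 in every tumour of a group. Skeletal muscle was represented by 1 of 10 genes, neutrophils and red cells by 2 of 7 each, adipocytes by 2 of 5 and chondrocytes by 5 of 6. On the deposited scale the muscle gene, Pvalb, was lower in the combination than under DRB without overlap, and passed. Of the 5 chondrocyte genes 1 lay lower without overlap, 0 higher, and 1 passed as lower. For the neutrophil, red cell and adipocyte genes all these counts were 0.

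In NT cultures the members separated by culture condition without overlap. With scrMo the conditions overlapped for Actr2 and Arpc5l, and with DkkMo for Actr2, Actr3 and Arpc5l. The share of all genes without overlap is not given here for the scrMo and DkkMo arms. Arpc5l showed the widest upward difference, at 13.59, 13.63 and 13.48 in log phase NT cultures and 14.29, 14.39 and 14.25 under stress, or 11847 ± 629 and 20075 ± 1019.9 normalised counts (mean ± SD, n = 3). Arpc1a showed the widest downward one, at 13.63, 13.71 and 13.65 in log phase and 13.00, 12.99 and 12.99 under stress, or 12674 ± 380.4 and 7852 ± 29.9 normalised counts. Both groups of 3 were far apart for each gene. Wasl was at 12.30, 12.20 and 12.21 in log phase and 12.77, 12.70 and 12.69 under stress, and Actr3 at 13.04, 12.86 and 12.90 and 13.24, 13.25 and 13.24, again without overlap.

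The smaller differences in NT cultures also had no overlap. Arpc2 was at 12.87, 12.82 and 12.80 in log phase NT cultures and 13.06, 13.13 and 13.03 under stress. Arpc3, which sits beside Actr3 in the complex, was at 11.59, 11.63 and 11.58 and 11.33, 11.45 and 11.37. Actr2 was at 12.78, 12.81 and 12.79 and 13.02, 12.98 and 12.95, and Arpc5 at 11.63, 11.70 and 11.73 and 11.80, 11.91 and 11.74. Every one of the 8 members had non-overlapping groups, as had 74.6% of all genes.

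**Figure D3:**
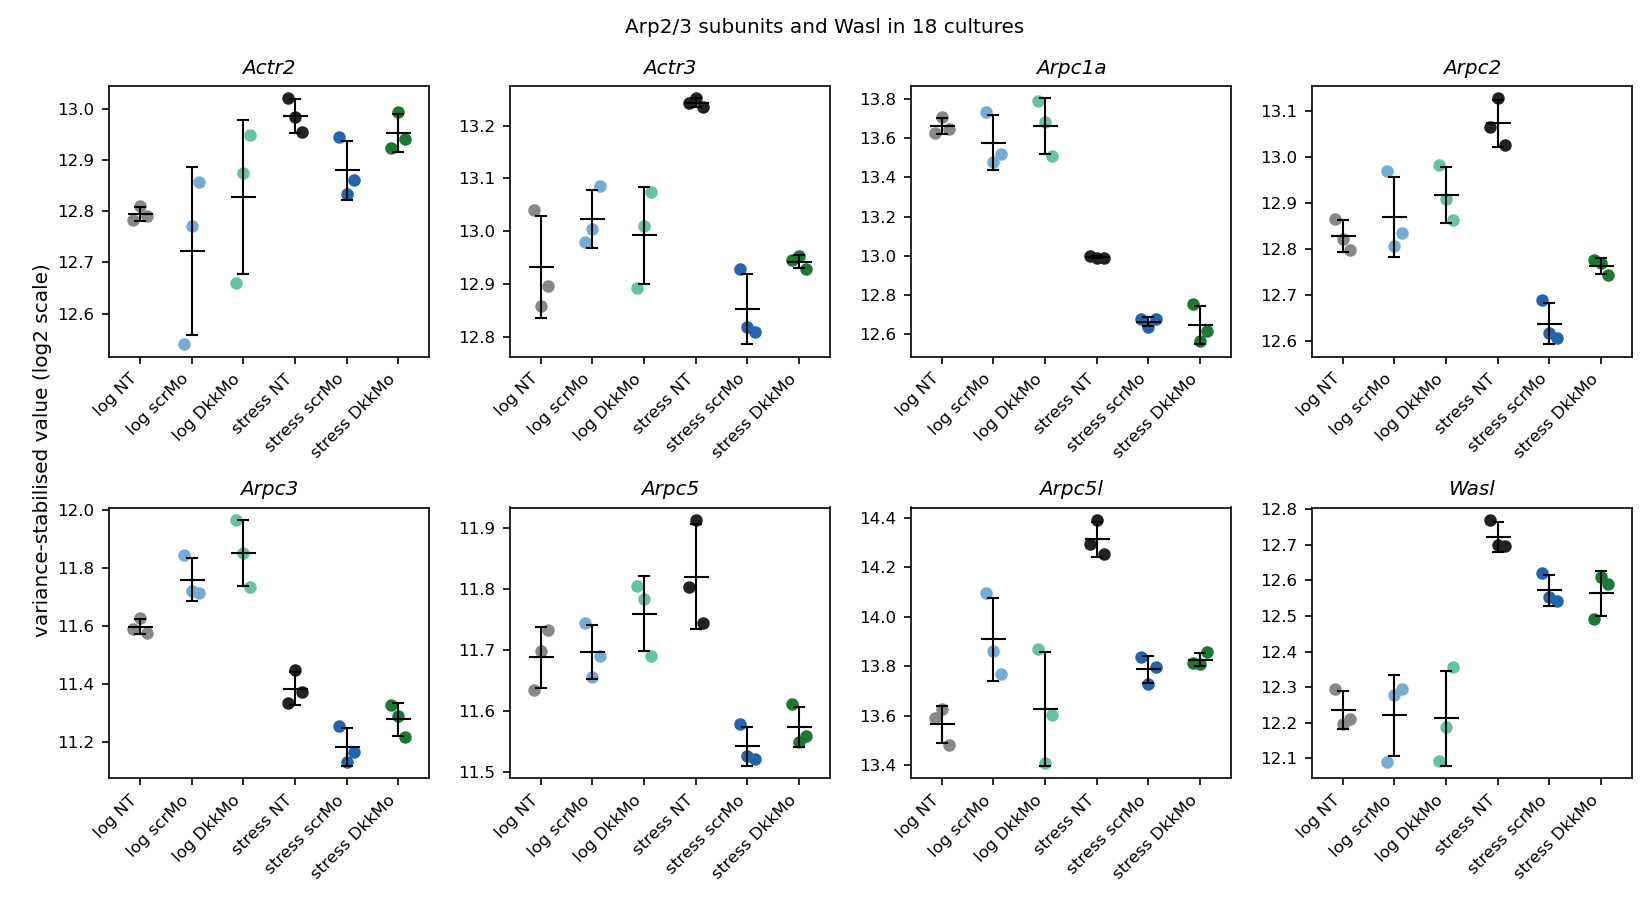
Variance-stabilised values (log2 scale) of the 8 members measured in the 18 cultures, 3 libraries per group, with the mean and 1 SD of each group. Arpc1a and Arpc3 lie lower under stress in all 3 arms and Wasl lies higher in all 3, while Actr3, Arpc2, Arpc5 and Arpc5l are highest under stress without a morpholino.

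Without a morpholino all 8 members passed limma with Benjamini-Hochberg adjustment, beside 65.6% of all genes, so that passing alone does not set them apart. The 6 that rose were Arpc5l by 0.75 (SE 0.092, adjusted p = 7.20e-07), Wasl by 0.49 (SE 0.065, adjusted p = 2.13e-06), Actr3 by 0.31 (adjusted p = 8.05e-05), Arpc2 by 0.24 (adjusted p = 3.40e-04), Actr2 by 0.19 (adjusted p = 0.0276) and Arpc5 by 0.13 (adjusted p = 0.0275). The 2 that fell were Arpc1a, with a difference of −0.67 (SE 0.072, adjusted p = 1.00e-07), and Arpc3, with −0.21 (adjusted p = 0.00333). The median of the 8 was 0.22 against −0.014 over all genes. Of these, Arpc5l, at 0.75, and Arpc1a, at −0.67, exceeded a 1.5-fold change. Actr2 did not pass without any 1 of log phase NT replicates 1, 2 and 3 or stress NT replicates 1 and 2 (0.17 to 0.20, adjusted p = 0.0502 to 0.0821), and Arpc5 did not pass without log phase NT replicate 1 (0.10, adjusted p = 0.113) or 2 (0.14, adjusted p = 0.0516) or stress NT replicate 2 (0.085, adjusted p = 0.174). With each library centred on its median, every difference rises by 0.16, and Arpc3 then no longer passed, at −0.056 (adjusted p = 0.390).

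With scrMo, 6 of the 8 members passed beside 58.8% of all genes, but only Wasl rose, by 0.35 (adjusted p = 1.37e-04). Arpc1a fell, with a difference of −0.92 (adjusted p = 3.01e-09), as did Arpc3 with −0.58 (adjusted p = 9.89e-08), Arpc2 with −0.23 (adjusted p = 7.07e-04), Actr3 with −0.17 (adjusted p = 0.0147) and Arpc5 with −0.15 (adjusted p = 0.0130). Actr2 differed by 0.16 (adjusted p = 0.0737) and Arpc5l by −0.12 (adjusted p = 0.278). The call for Actr3 was lost without log phase scrMo replicate 3 (−0.14, adjusted p = 0.0634), stress scrMo replicate 2 (−0.15, adjusted p = 0.0568) or stress scrMo replicate 3 (−0.15, adjusted p = 0.0617).

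With DkkMo, 5 of the 8 passed beside 65.6% of all genes. Wasl rose by 0.35 (adjusted p = 1.06e-04), and Arpc1a, with −1.02 (SE 0.072, adjusted p = 3.56e-10), Arpc3, with −0.57 (adjusted p = 6.23e-08), Arpc5, with −0.19 (adjusted p = 0.00318), and Arpc2, with −0.15 (adjusted p = 0.0127), fell. Arpc5l differed by 0.20 (adjusted p = 0.0653), Actr2 by 0.13 (adjusted p = 0.141) and Actr3 by −0.050 (adjusted p = 0.457). Arpc2 did not pass without log phase DkkMo replicate 1 (−0.12, adjusted p = 0.0564). Wasl and Arpc1a thus kept 1 direction in all 3 arms, each past the threshold, and Arpc3 did so on the deposited scale. The split of the smaller differences depended on the scaling: with each library centred on its median, 6 of the 8 were higher and 1 lower without a morpholino, 2 higher and 3 lower with scrMo, and 3 higher and 2 lower with DkkMo, where Arpc2 turned to 0.010. Centring raised the differences of all genes by 0.16, 0.066 and 0.16 in the same order. The share of all genes passing under it is not given here.

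**Figure D4:**
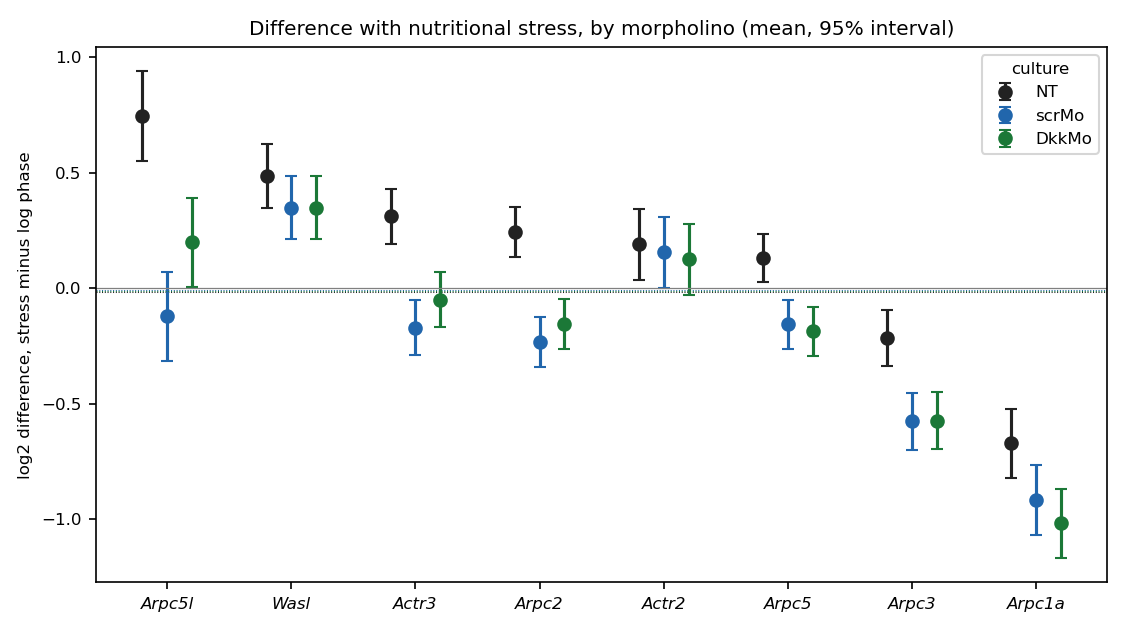
Log2 difference between nutritional stress and log phase for each member in NT, scrMo and DkkMo cultures, as limma estimates with their 95% intervals (3 libraries per group). The dotted lines just below 0 mark the median over all genes in each arm, and for Arpc5l, Actr3, Arpc2 and Arpc5 the NT estimate lies above those of both morpholinos, whereas the Actr2 intervals overlap.

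Whether the stress response differed with a morpholino was tested directly by an interaction term, a comparison added after the data were seen. For DkkMo against NT, 6 of the 8 members passed, all with a more negative difference between stress and log phase under DkkMo, beside 29.1% of all genes in either direction and 16.8% in this one: Arpc5l by −0.55 (SE 0.13, adjusted p = 0.00428), Arpc2 by −0.40 (adjusted p = 5.52e-04), Arpc3 by −0.36 (adjusted p = 0.00344), Actr3 by −0.36 (adjusted p = 0.00265), Arpc1a by −0.35 (adjusted p = 0.0151) and Arpc5 by −0.32 (adjusted p = 0.00279). For scrMo against NT, 5 of the 8 passed, all more negative with scrMo, beside 46% of all genes in either direction and 23.2% in this one: Arpc5l by −0.87 (SE 0.13, adjusted p = 2.84e-05), Actr3 by −0.48 (adjusted p = 8.24e-05), Arpc2 by −0.48 (adjusted p = 3.22e-05), Arpc3 by −0.36 (adjusted p = 0.00150) and Arpc5 by −0.29 (adjusted p = 0.00292), while Arpc1a was at −0.25 (adjusted p = 0.0545). For Arpc1a and Arpc3, which fell in NT cultures, a negative value is a larger fall, and for the others it is a smaller rise or a turn to a fall. Actr2 and Wasl passed neither, with −0.066 (adjusted p = 0.671) and −0.14 (adjusted p = 0.290) for DkkMo. Both interactions share the NT cultures. The interaction of DkkMo against scrMo with condition, which uses no NT library, gave 0 of the 8 members by limma, beside 22.2% of all genes. By voom it also gave 0. Arpc5l, at 0.32 (adjusted p = 0.0879), was the 1 member at an unadjusted p below 0.05 by limma. The share of all genes at that unadjusted threshold is not given here.

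Under nutritional stress the cultures with either morpholino had lower levels of most members than NT cultures. Arpc5l was at 14.29, 14.39 and 14.25 without a morpholino, 13.84, 13.73 and 13.80 with scrMo and 13.81, 13.81 and 13.86 with DkkMo. Actr3 was at 13.24, 13.25 and 13.24 without a morpholino, 12.93, 12.82 and 12.81 with scrMo and 12.95, 12.95 and 12.93 with DkkMo, and Arpc2 at 13.06, 13.13 and 13.03, 12.69, 12.62 and 12.61 and 12.78, 12.77 and 12.74. For all 3 genes the NT cultures were above all cultures with a morpholino.

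DkkMo against NT under stress gave 5 of the 8 members, all lower, beside 41.7% of all genes called in either direction and 22.7% called lower. They were Arpc5l by −0.49 (SE 0.092, adjusted p = 3.71e-04), Arpc1a by −0.35 (adjusted p = 7.65e-04), Arpc2 by −0.31 (adjusted p = 1.02e-04), Actr3 by −0.30 (adjusted p = 3.45e-04) and Arpc5 by −0.25 (adjusted p = 7.10e-04), while Wasl differed by −0.16 (adjusted p = 0.0587), Arpc3 by −0.11 (adjusted p = 0.157) and Actr2 by −0.033 (adjusted p = 0.743). The median was −0.27 against −0.0075 over all genes. The mismatch control against NT gave 6 of the 8, all lower, beside 46.8% called and 24.7% called lower: Arpc5l by −0.52 (adjusted p = 1.34e-04), Arpc2 by −0.44 (SE 0.051, adjusted p = 1.68e-06), Actr3 by −0.39 (adjusted p = 1.78e-05), Arpc1a by −0.33 (adjusted p = 9.75e-04), Arpc5 by −0.28 (adjusted p = 1.81e-04) and Arpc3 by −0.20 (adjusted p = 0.00883), with Wasl at −0.15 (adjusted p = 0.0669) and Actr2 at −0.11 (adjusted p = 0.247). All 8 members were lower in every scrMo culture than in every NT culture, as were 32.9% of all genes. These comparisons share the NT cultures.

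DkkMo and scrMo at the same dose did not differ past the threshold for any of the 8 members under stress by limma or by voom, beside 20.9% of all genes called. At an unadjusted p below 0.05 there was 1, Arpc2, at 0.13 (SE 0.051, adjusted p = 0.0932) with a 95% interval of 0.017 to 0.23, and its DkkMo cultures were all above its scrMo cultures, while the groups did not overlap, in either direction, for 44.9% of all genes. The share of all genes at that unadjusted threshold is not given here. Over the 8 members the 95% intervals lay between −0.17 and 0.23 on the log2 scale. Arpc5l differed by 0.039 (−0.15 to 0.23), Arpc1a by −0.018 (−0.17 to 0.13) and Wasl by −0.0084 (−0.15 to 0.13).

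In log phase the morpholinos moved few members. DkkMo against scrMo gave 1 of the 8, beside 23.5% of all genes: Arpc5l fell, with −0.28 (SE 0.092, adjusted p = 0.0339), from 14.10, 13.86 and 13.77 with scrMo to 13.87, 13.41 and 13.61 with DkkMo, and the groups overlap. It did not pass without log phase DkkMo replicate 2 (−0.17, adjusted p = 0.218) or 3 (−0.27, adjusted p = 0.0783), or without log phase scrMo replicate 1 (−0.19, adjusted p = 0.139) or 2 (−0.30, adjusted p = 0.0570). DkkMo against NT gave 1 of the 8, beside 9.81% of all genes, as Arpc3 rose by 0.25 (SE 0.058, adjusted p = 0.00842), from 11.59, 11.63 and 11.58 to 11.96, 11.85 and 11.74. The mismatch control against NT gave 2, beside 26.4% of all genes: Arpc5l rose by 0.34 (SE 0.092, adjusted p = 0.00966) and Arpc3 by 0.16 (adjusted p = 0.0480). The Arpc5l call was lost without log phase NT replicate 3 (0.30, adjusted p = 0.0542), and the Arpc3 call without any 1 of the 3 log phase NT replicates or without log phase scrMo replicate 1 or 2 (0.12 to 0.18, adjusted p = 0.0598 to 0.167).

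Arpc5l and Arpc5 take the same place in the complex, so their balance was followed as the log2 difference between them within each library. It was 1.88 ± 0.11 in log phase NT, 2.21 ± 0.14 with scrMo and 1.87 ± 0.22 with DkkMo, and 2.49 ± 0.02, 2.25 ± 0.04 and 2.25 ± 0.05 under stress in the same order (mean ± SD, n = 3). Arpc5l gained on Arpc5 by 0.34 log2 units under stress over all 18 cultures (two-sided exact permutation test within the morpholino arms, 8000 regroupings, p = 0.00225). The shift was 0.61 without a morpholino, 0.39 with DkkMo and 0.035 with scrMo, so that the pooled value does not describe the scrMo cultures. With the replicate number as a block, without the NT arm, it was 0.21 (exact permutation p = 0.125).

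How closely the subunits moved together depended on the setting. Over the 16 tumours the 15 pairs of members had Pearson correlations from 0.60 to 0.95, with a median of 0.82. Without NT replicate 4 and DRB replicate 1 the pairs ranged from −0.08 to 0.91 with a median of 0.59, over 14 tumours, and after removal of group means over all 16 from 0.57 to 0.92 with a median of 0.76. Against the mean of the other members over all 16 tumours, Arpc5l had r = 0.92, and 0.985% of all genes followed that mean more closely, while Arpc1a had r = 0.74, exceeded by 17.7% of genes. Without NT replicate 4 and DRB replicate 1, Arpc1a had r = 0.20, exceeded by 55.0% of genes. The other members then had 0.70 (Actr3) to 0.79 (Arpc2). With group means removed over all 16 tumours, Arpc1a had r = 0.81. Tumours in one group share their treatment, and all tumours share the differences in composition described above.

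Over the 9 stress cultures all 28 pairs were above 0, from 0.48 to 0.99 with a median of 0.87. Against the mean of the others Actr3 was highest, with r = 0.989, exceeded by 0.272% of genes. Actr2 was lowest, with r = 0.70, exceeded by 24.9% of genes. After removal of group means the median fell to 0.43, with 24 pairs above 0, so that part of the common pattern lies between the 3 arms. Against the others Arpc2 then had r = 0.93 and Actr3 0.79, while Wasl had 0.068 and Arpc1a 0.035. Over the 9 log phase cultures the members did not move as one: 13 of the 28 pairs were above 0, with a median of −0.01 and a range from −0.89 (Arpc1a with Wasl) to 0.85 (Arpc2 with Arpc3). After removal of group means the median was −0.43 and the range −0.97 to 0.97. Before that removal Actr2 and Wasl moved together in log phase (r = 0.80) and against the mean of the others (−0.65 and −0.59). Arpc2 and Arpc3 followed the mean of the others (0.73 and 0.72). With group means removed these 4 values against the others were −0.90 for Actr2, −0.80 for Wasl, 0.78 for Arpc2 and 0.36 for Arpc3. Each of these is a description of 9 libraries in 3 groups, and all genes of a library share 1 size factor.

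**Figure D5:**
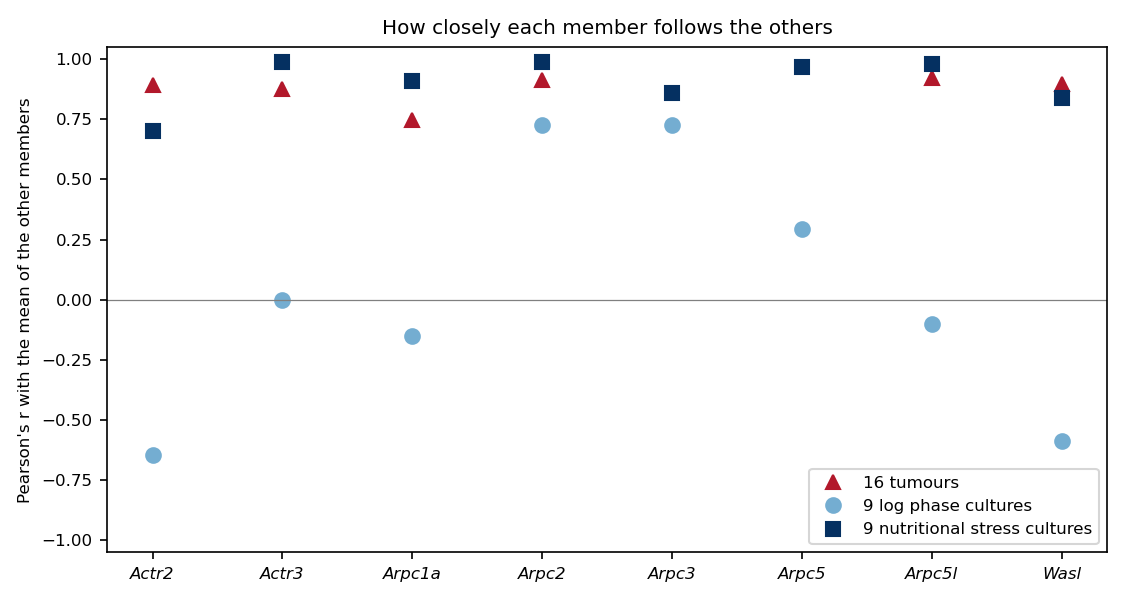
Pearson's r of each member with the mean of the centred values of the other members, over 16 tumours (triangles), 9 log phase cultures (circles) and 9 nutritional stress cultures (squares). Tumour and stress values all lie at 0.70 or above, while in log phase Actr2 and Wasl lie below −0.5 and Arpc2 and Arpc3 near 0.7.

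The genes outside the lists that followed the mean of the members most closely differed between the settings. Over the 16 tumours they were Lars2 (r = 0.984), which charges mitochondrial leucine tRNA, Arih1 (0.976), a ubiquitin ligase, Gphn (0.9746), the receptor scaffold gephyrin, Tpt1 (0.967) and the predicted gene Gm19951 (0.965). In the 9 log phase cultures they were Adipor1 (0.977), an adiponectin receptor, Jmjd6 (0.976), Immt (0.974), a protein of mitochondrial cristae, Fhl2 (0.973) and Clec2d (0.972). In the 9 stress cultures they were Ccdc38 (0.997), Cd63 (0.996), a tetraspanin of late endosomes, the small nucleolar RNA Snord14a (0.995), the ribosomal protein gene Rpl35 (0.995) and Hnrnpd (0.995). Rpl35 lies on the other strand of the Arpc5l locus.

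Other genes of the branched actin pathway were followed through lists of activators, regulators and actin-binding proteins, of which 64 genes were measured in cultures and 52 in tumours. Between stress and log phase without a morpholino 23 of the 64 rose and 28 fell, which makes 79.7% beside 65.6% of all genes. Of the actins and filament end proteins 7 of 10 fell and 0 rose, of the WASP family and other activators 4 of 6 rose and 1 fell, of the WAVE complex partners 3 of 8 rose and 3 fell, of the inhibitors and branch disassembly factors 3 of 10 rose and 5 fell, of the other actin nucleators 5 of 13 rose and 8 fell, of the upstream GTPases and adaptors 5 of 12 rose and 3 fell, and of the WASH complex partners 2 of 4 rose and 1 fell. Whether the lists differ from each other was not tested. The formin Diaph3, which builds unbranched filaments, fell by 1.97 (SE 0.10, adjusted p = 5.50e-12). Trip10, the Cdc42 effector known as CIP4 that bends membranes with N-WASP, rose by 1.51 (SE 0.049, adjusted p = 1.49e-14), and Washc2 of the endosomal WASH complex rose by 1.35 (SE 0.070, adjusted p = 4.17e-12).

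With scrMo 20 of the 64 rose under stress and 27 fell, or 73.4% beside 58.8% of all genes, and with DkkMo 18 rose and 31 fell, or 76.6% beside 65.6%. Under stress DkkMo against NT gave 7 of the 64 higher and 21 lower (43.8% beside 41.7% of all genes), and scrMo against NT 11 higher and 25 lower (56.2% beside 46.8%). DkkMo against scrMo gave 5 higher and 9 lower under stress (21.9% beside 20.9%), where Abi3 of the WAVE complex fell (−0.47 (SE 0.10, adjusted p = 0.00231)), the Actr3 copy Actr3b fell (−0.45 (SE 0.068, adjusted p = 1.05e-04)) and the filament-severing cofilin Cfl2 rose (0.37 (SE 0.049, adjusted p = 2.87e-05)). In log phase it gave 12 higher and 6 lower (28.1% beside 23.5%), with the actin nucleator Lmod1 at 0.59 (SE 0.088, adjusted p = 9.26e-05), the formin Diaph3 at 0.49 (SE 0.10, adjusted p = 0.00207) and the Arp2/3 inhibitor Arpin at 0.35 (SE 0.048, adjusted p = 3.81e-05), all 3 higher with DkkMo.

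In the tumours the combination against DRB gave 0 of the 52 pathway genes higher and 6 lower (11.5% beside 7.35% of all genes), with a median difference of −2.39 against −0.71 over all genes. Rac1, the GTPase that drives the WAVE complex, fell by 4.93 (SE 1.497, adjusted p = 0.0499), Washc5 of the WASH complex fell by 4.85 (SE 1.37, adjusted p = 0.0380) and Fnbp1, a membrane-bending partner of N-WASP, fell by 4.47 (SE 1.31, adjusted p = 0.0444). The other tumour comparisons gave 0 of the 52 in either direction by limma.

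The Actr3 copy Actr3b ran apart from Actr3. In cultures it rose with stress in every arm, from 15.7 ± 3.87 to 239 ± 26.6 normalised counts without a morpholino (mean ± SD, n = 3), a log2 difference of 1.26 (SE 0.068, adjusted p = 6.80e-12) on the deposited scale, and by 1.40 with scrMo and 1.22 with DkkMo. In the tumours Actr3b was at 11.23, 11.12, 11.15 and 10.21 in NT, 9.49, 11.16, 12.49 and 12.83 under DRB, 11.93, 11.60, 13.10 and 10.60 under DkkMo and 11.48, 12.77, 11.89 and 11.78 under the combination. The groups overlap, and NT replicate 4 and DRB replicate 1, the highest tumours for Actr3, were the lowest of their groups for Actr3b. The combination against DRB was at 0.49 (adjusted p = 0.690) for Actr3b. Of the actins themselves, Actb fell with stress (−0.23 (adjusted p = 0.0304) without a morpholino, −0.51 with scrMo and −0.90 with DkkMo) and was at −5.00 (adjusted p = 0.0561) in the combination against DRB. Actg1 fell with stress only with DkkMo (−0.48 (adjusted p = 2.28e-05)), was at 0.065 (adjusted p = 0.474) without a morpholino and 0.11 (adjusted p = 0.244) with scrMo, and was at −6.21 (adjusted p = 0.0561) in the combination against DRB. Where no member differed between DkkMo and scrMo under stress, Actg1 fell (−0.34 (adjusted p = 0.00402)) and Actb was at −0.10 (adjusted p = 0.464).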

How the data were processed

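RNA was sequenced from 18 cultures and 16 tumours. The authors aligned reads to the mouse genome GRCm38 with HISAT2 2.1.0, handled alignments with SAMtools 1.9, counted reads per gene with featureCounts of Subread 2.0.0, and variance-stabilised the counts of cultures and of tumours separately in DESeq2 (the submitters' processing notes also name StringTie). The deposited values are on a log2 scale after division by a size factor per library. This scale compresses differences of genes with few reads, and its floor is 7.20 in cultures and 6.23 in tumours. Strandedness and the handling of reads that match several genes are not given in the sources used here. Reversing the transformation gave whole reads (tolerance 0.05), from which normalised counts and reads per megaread were computed. The culture table lists 16576 genes, and 14 rows that spanned more than 6 units within a group were set aside.

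The moderated test of limma 3.58.1 (R 4.3.3, mean-variance trend, a separate coefficient for every group, cultures and tumours in their own models) was used, with Benjamini-Hochberg adjustment across the genes of a table. A gene passed at an adjusted p below 0.05. Genes needed reads in at least 3 cultures or 4 tumours, which removed none. The procedure was tested on simulated data. The members and the lists were chosen with earlier results of these data known. Named besides the members are Actr3b, Actb, Actg1, the 3 pathway genes with the largest passing differences in each of 5 comparisons, and the 5 genes most correlated with the members in each setting. The interactions of each morpholino against NT with condition, 2 tumour scalings or covariates and the removal of 2 tumours were added after seeing the data. Of 4 planned balances of subunit copies only that of Arpc5l and Arpc5 in cultures had rows for both genes. Gene annotation is GENCODE vM21, and promoters are from RefSeq. Tables and figures were made with Python 3.11.15, NumPy 2.4.6, pandas 2.3.3 and matplotlib 3.10.9.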

Additional observations from a re-analysis of the deposited data

Results flagged for a closer look

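A value far from the rest of its group was found in 1 of the 24 tumour groups of 4 values tested (6 members in 4 groups), Arpc5l in DRB replicate 1, with 14.63 against 9.33, 9.08 and 9.29 in the others. The gap took 0.955 of the range of the group, above Dixon's 95% critical value for 4 samples, and about 1 in 20 groups passes this limit by chance. The same tumour was the highest of its group for all 6 members, and was 1 of the 2 most like the cultures.

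The response to nutritional stress differed with a morpholino by the test of the difference itself (limma, adjusted over all genes, chosen after the data were seen). With DkkMo against NT the difference was −0.36 for Actr3, −0.35 for Arpc1a, −0.40 for Arpc2, −0.36 for Arpc3, −0.32 for Arpc5 and −0.55 for Arpc5l, with adjusted p from 5.52e-04 to 0.0151. With scrMo against NT it was −0.48 for Actr3, −0.48 for Arpc2, −0.36 for Arpc3, −0.29 for Arpc5 and −0.87 for Arpc5l, with adjusted p from 2.84e-05 to 0.00292. Both rest on the same NT cultures, and the morpholinos did not differ from each other past the threshold in this respect for any member.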

How the results depend on the processing

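Depth limits little in the cultures, where every member had at least 1698 reads per library, and more in the tumours, where 5 of the 6 members had libraries at 0 reads. For the 47 differences of single members that had passed, 606 values were recomputed under the alternatives: 553 still passed, 52 no longer did, and 1 turned, Arpc2 between stress and log phase with DkkMo, at 0.010 when each library was centred on its median. Some differences that had not passed also turned, among them Arpc1a in the combination against DRB. The causes of these changes were not tested.

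For the combination against DRB, with 2 of 6 members, the count was 0 with libraries centred on their medians, 0 with only genes above the median gene (which leaves Actr2 and Arpc1a), 5 with only the groups compared, 0 by limma voom, and, among alternatives added after seeing the data, 1 on the log2 RPM scale and 0 with the covariate for likeness to the cultures. The genes called in all numbered 926 in the model of all groups and 471, 522, 1636, 0, 2922 and 106 in the same order. Leaving out 1 library gave 0 to 3 members. The combination against NT gave 0 to 2, and the other tumour comparisons 0 throughout. For the repeats that left out 1 library the share of all genes called is not given here.

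In cultures, DkkMo against scrMo under stress gave 1 member with centred libraries and 1 with only the groups compared, against 0, and its interaction with condition 1 with centred libraries, against 0. In log phase scrMo against NT gave 1 on log2 normalised counts plus 1 and 1 with only the groups compared, against 2, and with only the groups compared DkkMo against scrMo and DkkMo against NT each gave 0, against 1. Leaving out 1 library gave 0 to 2 for DkkMo against scrMo and for scrMo against NT in log phase, 1 for DkkMo against NT, 0 for DkkMo against scrMo under stress, 0 to 1 for its interaction, 5 for DkkMo against NT under stress and 6 for scrMo against NT. For stress against log phase it gave 6 to 8 without a morpholino and 5 to 6 with either morpholino, and for the added interactions 6 with DkkMo and 5 to 6 with scrMo. None of these culture counts is set beside the share of all genes called in its setting, so they are not read as particular to the members.

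The balance of Arpc5l and Arpc5 shifted by 0.305 to 0.377 without 1 library. With the replicate number as a block, which leaves out the NT arm because its stress titles repeat a number, it was 0.210 (exact permutation p = 0.125). Same-numbered cultures deviated together in some groups only: over 30 pairs the correlation of their deviations ran from −0.059 to 0.624, highest for log phase DkkMo and scrMo replicates 1 (0.624) and 3 (0.570) but −0.049 for their replicates 2, with a mean of 0.081 against −0.039 for different numbers and 8 above 0.1, so the numbers were not taken as pairs. The block left the counts of members at 1 and 0 for DkkMo against scrMo in log phase and under stress, 1 and 2 for DkkMo and scrMo against NT in log phase, and 6 for stress against log phase with scrMo, and gave 6 with DkkMo, against 5, as Arpc5l then passed. With the block, too, the share of all genes called is not given here. The tumours carry no shared numbers.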
